A study of Mus musculus with 6 samples.

Results

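Ribosomal protein genes were examined as a constitutive reference set in the ATAC-seq data of Fam20c-deficient osteoblasts. The set held every RefSeq protein-coding gene on chromosomes 1 to 19 whose symbol is Rpl or Rps with digits and an optional suffix, Rpsa and the Rplp genes included, without pseudogenes and without the Rps6k kinases. This gave 81 of 20665 protein-coding genes on these chromosomes, 47 for the large subunit, 31 for the small subunit and 3 for the P stalk. Of these, 73 were canonical genes and 8 were paralogs with an l in the suffix. The libraries came from OB Fam20c f/f, an immortalized mouse osteoblast line whose Fam20c alleles are floxed, and from OB Fam20c KO, the same line after infection with a lentivirus carrying Cre recombinase. Fam20c encodes a kinase of the secretory pathway. Since no such infection is described for the f/f cells, loss of Fam20c and the Cre lentivirus cannot be told apart. There were 3 libraries of each group, from 50000 nuclei each, transposed with Tn5 for 30 min at 37 °C. The labels do not say whether the libraries came from separate cultures, so that p-values measure the spread between these libraries, which may be technical.

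The cytoplasmic ribosome joins a small subunit, which decodes the mRNA, to a large subunit, which forms the peptide bond, and each ribosomal protein is usually made from 1 active gene next to many silent processed copies. These genes are transcribed at high rates in growing cells, and their products are needed in equal amounts. Their mRNAs typically begin with a C followed by a run of pyrimidines, the 5′ terminal oligopyrimidine tract through which the mTOR pathway controls their translation. ATAC-seq reads where the Tn5 transposase can enter chromatin, and active promoters usually appear as peaks.

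Start sites were listed in RefSeq (GRCm38.p6) for 61 of the 81 members, and where there was more than 1, in 10 members, the one nearest to the summit was used. The 90 bases from 60 before to 30 after the start are printed for 12 members, 5′ to 3′ on the gene's strand, with the longest run of C and T that reached within 10 bases of the start in capitals. The first 7 are shown because they carry the run, among them Rpl7a with 21 bases, the longest run of the members.
Rpl7a (chr2:26910747-26910836, plus strand): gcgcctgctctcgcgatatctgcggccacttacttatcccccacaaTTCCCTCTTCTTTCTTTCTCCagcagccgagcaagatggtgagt
Rpl27a (chr7:109519135-109519224, plus strand): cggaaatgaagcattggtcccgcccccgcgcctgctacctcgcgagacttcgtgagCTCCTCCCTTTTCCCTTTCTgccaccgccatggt
Rpl35 (chr2:39005102-39005191, minus strand): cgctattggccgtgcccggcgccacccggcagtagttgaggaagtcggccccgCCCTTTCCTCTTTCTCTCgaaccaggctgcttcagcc
Rps27 (chr3:90213619-90213708, minus strand): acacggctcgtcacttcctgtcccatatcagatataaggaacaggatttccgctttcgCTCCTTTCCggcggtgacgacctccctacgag
Rps18 (chr17:33955636-33955725, minus strand): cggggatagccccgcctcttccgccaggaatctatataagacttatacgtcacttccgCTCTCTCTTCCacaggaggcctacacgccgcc
Rps6 (chr4:86857338-86857427, minus strand): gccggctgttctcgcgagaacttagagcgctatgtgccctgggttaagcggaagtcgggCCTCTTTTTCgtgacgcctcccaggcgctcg
Rps10 (chr17:27635215-27635304, minus strand): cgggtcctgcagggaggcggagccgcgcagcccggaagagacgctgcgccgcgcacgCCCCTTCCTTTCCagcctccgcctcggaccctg

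The other 5 carried shorter runs of 3 to 6 bases and are shown because the results turn on them. Rpl37 had the strongest peak of the set, Rpl35a, Rpl26 and Rpl19 the largest score differences between the groups at a listed start, and Rplp0 is often used as a reference gene.
Rpl37 (chr15:5116553-5116642, plus strand): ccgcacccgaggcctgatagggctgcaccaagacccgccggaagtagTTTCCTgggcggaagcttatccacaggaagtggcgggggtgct
Rpl35a (chr16:33056393-33056482, plus strand): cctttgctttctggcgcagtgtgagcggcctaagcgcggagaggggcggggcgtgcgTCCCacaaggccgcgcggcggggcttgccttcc
Rpl26 (chr11:68901506-68901595, plus strand): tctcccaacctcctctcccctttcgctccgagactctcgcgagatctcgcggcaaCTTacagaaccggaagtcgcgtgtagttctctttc
Rpl19 (chr11:98026650-98026739, plus strand): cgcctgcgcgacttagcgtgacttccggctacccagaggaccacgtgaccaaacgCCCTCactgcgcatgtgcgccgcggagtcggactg
Rplp0 (chr5:115559407-115559496, plus strand): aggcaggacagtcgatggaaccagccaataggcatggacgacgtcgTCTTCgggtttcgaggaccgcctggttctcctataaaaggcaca

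The authors' peak lists held 62781 to 74797 peaks in 5 libraries and 32958 peaks in OB Fam20c KO replicate 3, the shortest list. Peaks of the 6 lists that shared at least 1 bp were merged into 89410 regions, and 29849 of these, 33.4%, had a peak in all 6 libraries and are called shared regions. Of 13 osteoblast markers, 10 had a main region in all 6 libraries, whereas Bglap and Ibsp had no region. Of 19 markers of other cell types, 7 had such a region, and of all protein-coding genes 62.9% had one. The osteoblast markers with one had a median standing, as defined below, of 35.9. In the other cell types with one, the median was 39.7 to 66.9, from 1 or 2 genes each. Fam20c itself had a main region in all 6 libraries, with a mean standing of 85.35 in f/f and 93.95 in KO (limma adjusted p of 0.00777), and a peak list does not show whether a floxed exon is gone. A missing peak means that the site did not pass the authors' threshold and not that chromatin was closed.

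A peak within 1 kb of the gene span was found for 78 of the 81 members in every one of the 6 libraries, including KO replicate 3. All 73 canonical members had a main region with a peak in all 6 libraries, the main region being the one with the highest mean standing in the 6 lists. So did 5 of the 8 paralogs. Over all protein-coding genes the share with a peak nearby was 72.2%, 72.1% and 74.2% in the f/f libraries, 72.1% and 71.9% in KO replicates 1 and 2, and 64.0% in KO replicate 3. In the short list of KO replicate 3 the share of all genes was thus lower, and the count of members was the same. A main region in all 6 libraries was present in 96.3% of members, in 62.9% of all protein-coding genes and in 44.3% of the 8005 genes whose span lay in the range of the members, from 592 to 11774 bp.

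The members had 99 distinct regions, 89 of them with a peak in all 6 libraries. A single region was found for 58 members, 2 regions for 18 members and 3 regions for 2 members. In 1 of the 99 regions the peak was found in all libraries of one group and none of the other. This region lay at chr11:97776625-97777460 near Rpl23, a large-subunit protein that can bind the p53 regulator Mdm2, and its peak was in the 3 f/f libraries. Over all 89410 merged regions, 3.75% were of this f/f-only kind and 0.179% were KO-only. The main region of Rpl23, over its start site, was present in all 6 libraries.

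Strength was compared by rank, because the −log10 q of a peak depends on the depth and background of its own list. The strength standing of a region is its percentile by −log10 q among the 29849 shared regions of a library, with 100 the highest. The median standing of the 78 members with a main region was 84.9, 81.4 and 84.2 in f/f replicates 1 to 3 and 81.6, 80.5 and 80.1 in KO replicates 1 to 3. The median over the main regions of all protein-coding genes was 75.95 to 77.2 in the 6 libraries. Wherever standing or width is compared, all genes means the 12987 protein-coding genes with a main region in all 6 libraries. The members' medians were thus above that of all genes in each library. They were not at the very top, since 23.1% of members had a mean standing over 90, against 21.2% of these genes. A mean standing over 75 was found in 71.8% of members and 53.0% of these genes, and one under 50 in 2.56% and 17.6%. As ranks in the whole lists, with 1 the highest −log10 q, the members' median was 4513, 5563 and 4715 in the f/f lists and 5521, 5837 and 5971 in the KO lists.

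**Figure D1:**
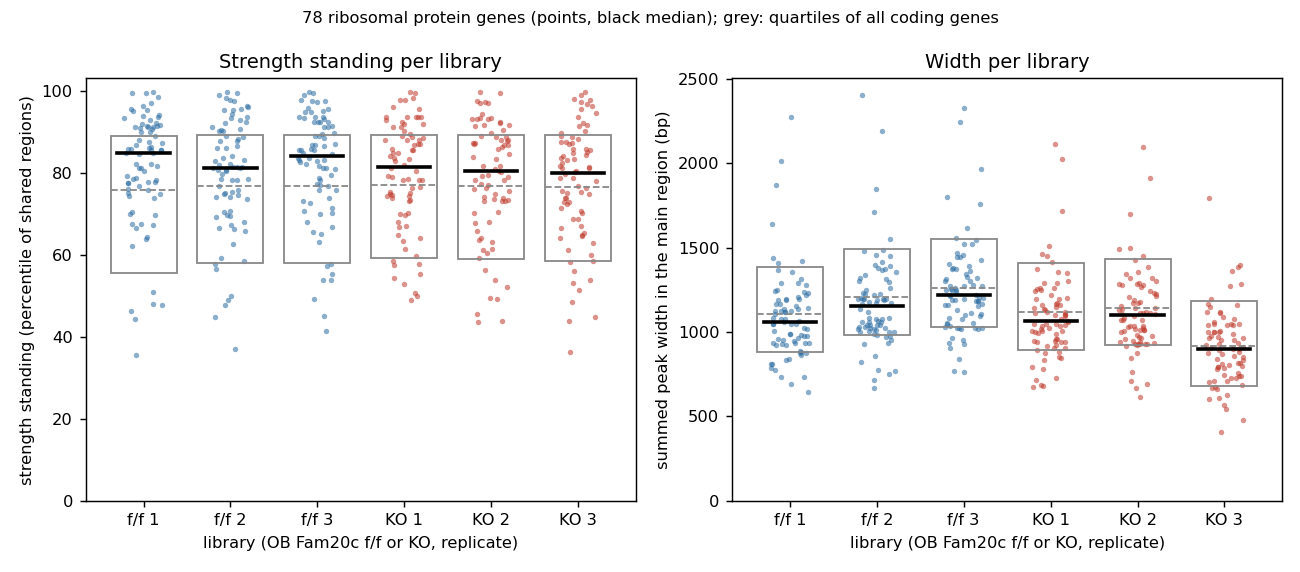
Left, strength standing (percentile among shared regions) and right, summed peak width in the main region (bp), for 78 ribosomal protein genes in each of 3 OB Fam20c f/f (blue) and 3 OB Fam20c KO (red) libraries. Points are members, black lines their medians, and grey boxes with a dashed line the quartiles and median over all protein-coding genes with a shared main region; the members' median standing lies between 80.1 and 84.9, above the dashed line in each library, and the widths of KO replicate 3 are the lowest, with a median of 902 bp.

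Among large-subunit genes, the mean standing of the 44 with a main region had a median of 80.0 and ran from 49.0 to 99.9. Rpl37, whose zinc-binding product sits on the large subunit, was the strongest member, with standings of 99.89, 99.86 and 99.91 in f/f and 99.93, 99.93 and 99.74 in KO. It ranked 38, 43 and 28 among all peaks of the f/f lists and 23, 22 and 84 among those of the KO lists, at chr15:5115902-5117185. Rpl30 followed with 99.5, 99.6 and 99.7 in f/f and 99.6, 99.5 and 99.0 in KO. Rpl37 and Rpl30 thus stood at 98.99 or higher in every library, and their groups overlapped. Rpl27 had a mean standing of 97.8 with an SD of 0.538 points over the 6 libraries. Rpl3, whose product lies near the peptidyl transferase centre, had a mean of 98.6. At the other end, Rpl24 had standings of 46.4, 59.3 and 54.0 in f/f and 54.3, 43.9 and 36.3 in KO, which overlapped between the groups.

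The 31 small-subunit genes had a median mean standing of 81.6 and ran from 50.0 to 96.2. Rps19, the gene mutated most often in Diamond-Blackfan anaemia, stood at 95.5, 98.3 and 93.6 in f/f and at 93.8, 94.5 and 95.6 in KO. Rpsa, also known as the laminin receptor, stood at 92.2, 83.2 and 89.6 in f/f and at 92.1, 93.5 and 96.4 in KO. The groups overlapped at both genes. Among the weakest were Rps24 with a mean of 50.0 and Rps7 with 52.5. Rps24 varied little in f/f, from 48.1 to 50.1, and ran from 45.5 to 53.9 in KO, so that a low standing was not a matter of 1 library. The 3 genes of the P stalk, which recruits elongation factors, stood at 97.2 for Rplp0, 90.7 for Rplp1 and 86.0 for Rplp2 as means over the 6 libraries. Over all members, the SD of the standing across the 6 libraries had a median of 4.397 points, against 5.095 points over all protein-coding genes, and was under 2 points in 12 members. Standings near 100 leave little room for spread, and the members stood higher than all genes, so that these SDs do not compare steadiness.

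**Figure D2:**
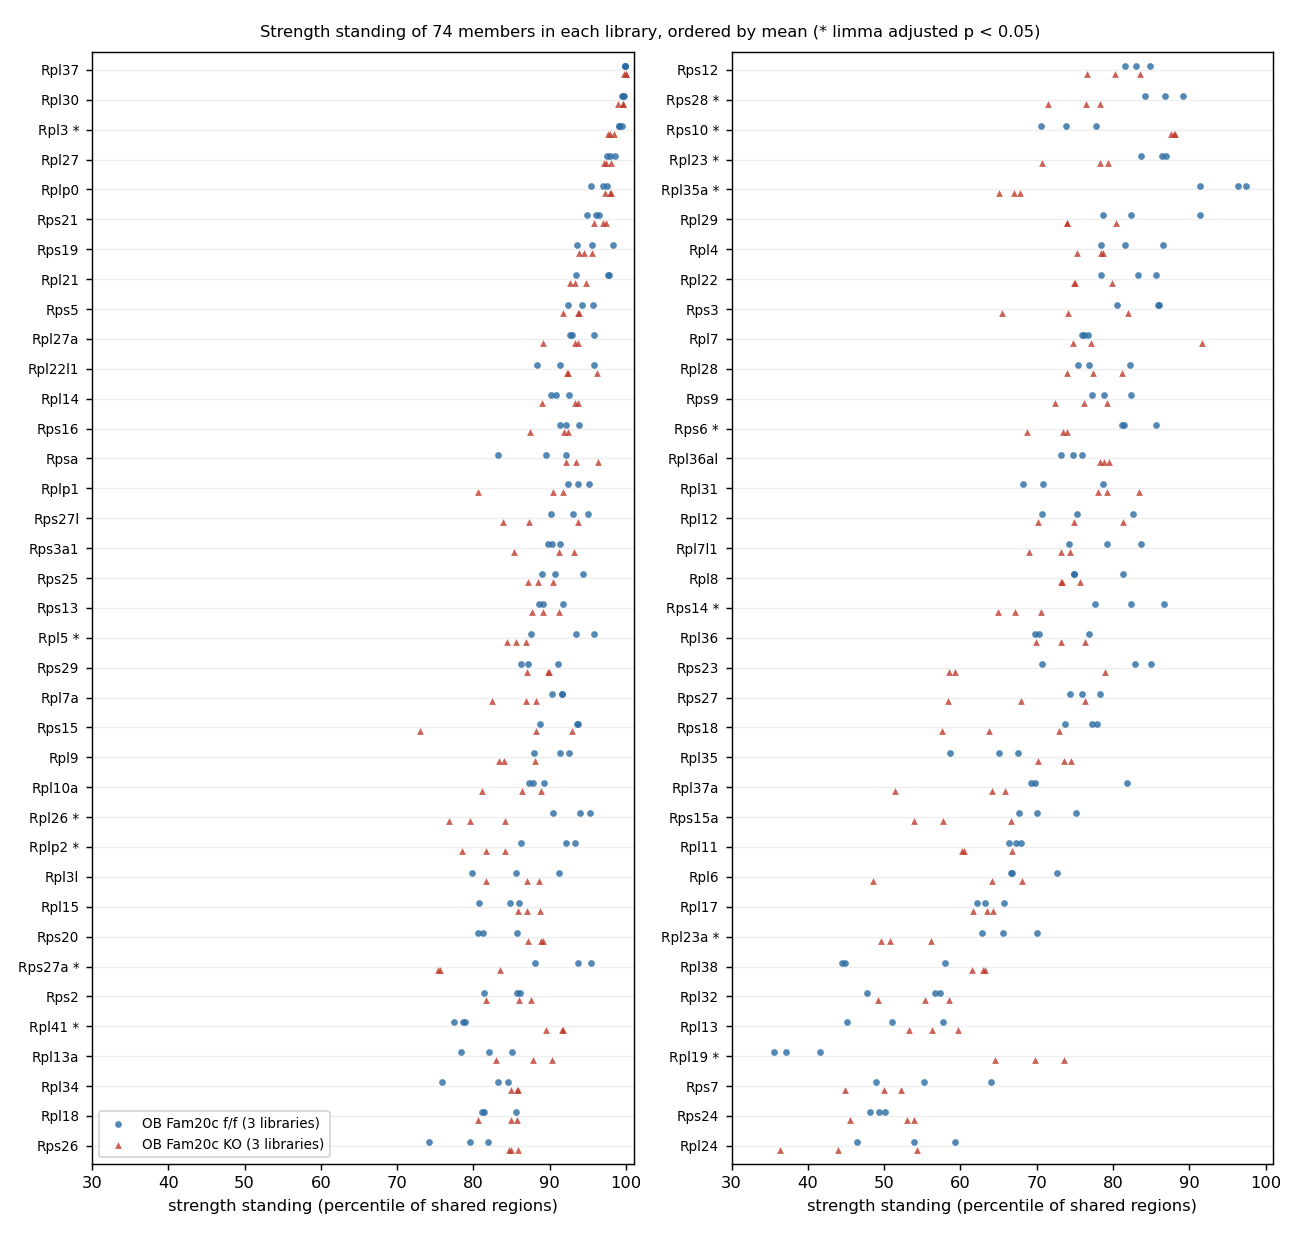
Strength standing (percentile among shared regions) of the main region of 74 of the 78 members, ordered by mean, in 3 OB Fam20c f/f libraries (blue circles) and 3 OB Fam20c KO libraries (red triangles), with a star where the limma adjusted p was under 0.05. Rpl37 lies near 99.9 in all 6 libraries, the blue and red points of Rpl35a and Rpl19 lie farthest apart, and the point of Rpl19 belongs to a region over a neighbouring gene.

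The width of the members was compared in bp and by its own standing. The median width in the main region was 1060, 1154 and 1218 bp in f/f and 1064, 1102 and 902 bp in KO. Over all protein-coding genes it was 1106, 1209 and 1262 bp in f/f and 1121, 1142 and 916 bp in KO, and over all shared regions 871, 977 and 1040 bp in f/f and 896, 932 and 626 bp in KO. The members' peaks were thus slightly narrower than those of all genes in each library and wider than those of all shared regions. KO replicate 3 had the narrowest peak of the 6 libraries in 68 of 78 members, and its list was the shortest. Widths were more alike among members than among genes, with a coefficient of variation of 22.03% against 34.4%. The widest main regions were those of Rpl19, Rpl7, Rpl35a, Rps12 and Rpl10a, from 1798 to 2517 bp. The narrowest belonged to Rpl23a, Rps28, Rpl28, Rplp0 and Rpl17, from 811 to 932 bp. Those of Rpl19, Rpl7 and Rpl35a also overlapped Cacnb1, Rdh10 and Iqcg, as 20 of the 78 main regions overlapped another protein-coding gene.

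Peak summits lay close to the listed start sites. The main region covered a listed start in 53 of 58 members with both, 91.4%, against 77.3% of 10354 protein-coding genes. The summit, as the median over the 6 libraries, was at a median of 33.5 bp before the start, with quartiles of 97 bp before and 5 bp after it. It was within 100 bp of the start in 69.0% of members and 47.7% of genes. The summits of the 6 libraries spanned a median of 69.5 bp in members and 88 bp in genes. In Rpl35, named for this value, all 6 summits fell within 1 bp. The 5 members whose main region missed the listed start were Rpl4, Rpl18, Rpl19, Rpl41 and Rpl3l. Their main regions lay over Snapc5, Sphk2, Cacnb1, Zc3h10 and Msrb1, and except for Rpl3l they had a second shared region over their own start.

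**Figure D3:**
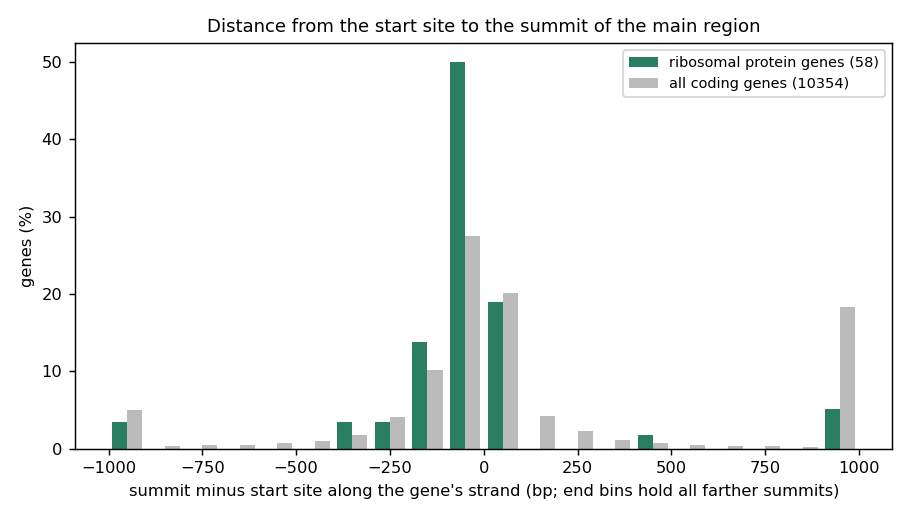
Distance from the listed start site to the summit of the main region in bp along the gene's strand (x axis, bins of 100 bp, the end bins holding all farther summits) against the share of genes in percent (y axis), for 58 ribosomal protein genes (green) and 10354 protein-coding genes (grey). A share of 50.0% of the members falls in the bin just before the start, against 27.5% of all genes.

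The promoters of the 61 members with a listed start shared sequence features that the choice of members had not used. The run of C and T at the start, as printed for Rpl7a, Rpl27a and Rpl35, had a median of 7 bases, against 4 bases over the 20085 promoters listed for 16457 protein-coding genes. It reached 8 bases in 27 of 61 members, 44.3%, and in 13.8% of all promoters. With 1 promoter per gene, chosen as for the members, it did so in 13.1% of the 10354 genes with a main region in all 6 libraries. Rpl35a, with 4 bases, and Rplp0, with 5 bases, show that it was not found at all listed starts. The first base was a C in 36.1% of members and 13.9% of promoters. Within 20 bases either side of the start on the sense strand, CTTTC was found in 29.5% of members and 5.06% of promoters, TTCC in 50.8% and 20.8%, and CTTTT in 9.84% and 3.80%. TTCC, CTTTC and CTTTT can overlap within 1 run.

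Over the 300 bases of each promoter and on both strands, CCGGAAG, the core of ETS factor sites, was found in 39.3% of members, 11.9% of all promoters and 17.9% of the 10354 genes with a main region in all 6 libraries. AAGATGG, a YY1-type core, was found in 14.8% of members and 6.29% of all promoters. TATAAA was found in 8.20% of members, 12.7% of all promoters and 6.87% of genes with a main region. CCAAT was found in 29.5%, 38.1% and 38.5% of these sets, and GGGCGG, an Sp1-type box, in 59.0%, 47.0% and 65.2%. The members thus differed more from the genes with a main region in the pyrimidine letters and CCGGAAG than in TATAAA or GGGCGG. Both TTCC and CCGGAAG can lie in the same ETS core, read from opposite strands. These matches are descriptions of letters and not of bound sites.

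**Figure D4:**
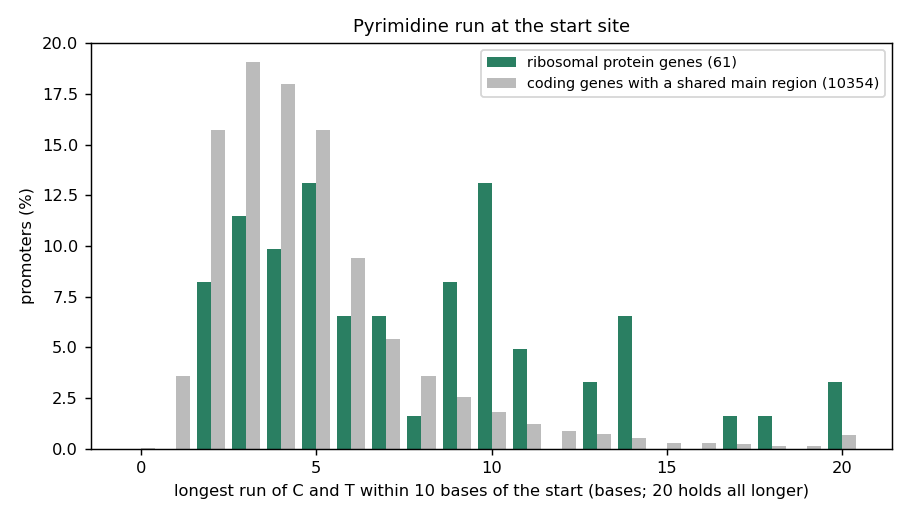
Length in bases of the longest run of C and T that reaches within 10 bases of the start (x axis, 20 holding all longer runs) against the share of promoters in percent (y axis), for 61 ribosomal protein genes (green) and 10354 protein-coding genes with a main region in all 6 libraries (grey), with 1 promoter per gene. Runs of 10 bases make up 13.1% of the members and 1.83% of these genes.

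The comparison of OB Fam20c KO with OB Fam20c f/f asked whether the standing of these promoters moved with the loss of Fam20c. The test was limma on normal scores, that is on ranks turned into quantiles of a normal distribution, over all 29849 shared regions, with Benjamini-Hochberg adjustment over all of them. At an adjusted p under 0.05, 4 of the 78 members were higher in KO and 12 were lower, 5.13% and 15.4%. At the same adjusted threshold 13.6% of all shared regions were higher and 12.4% lower, and over the main regions of all protein-coding genes 14.7% and 10.6%. The members' share of lower calls was thus slightly above the background and that of higher calls below it. At an unadjusted p under 0.05 the members' counts were 9 and 22. These have no share over all regions beside them and cannot be set against the shares above. The members' median difference was −1.48 points of standing, from −28.5 to 31.2, and 38 members moved by less than 5 points. Every KO library was above every f/f library in 10 members, 12.8%, and below in 17 members, 21.8%. Over all shared regions these shares were 21.1% and 20.9%.

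The calls depended on the measure of strength. Ranked by the authors' fold over local background instead of −log10 q, 2 members were called, both higher in KO, Rpl19 at its region over Cacnb1 and Rps10. By fold, 1.78% of all shared regions were higher and 1.57% lower, so that 2 of 78 is near the background. Ranked in the whole lists, in which KO replicate 3 is shorter, 4 members were called, all lower, beside 0.811% higher and 3.19% lower over all shared regions. For width, 0 members had a higher and 1 had a lower standing in KO (limma, adjusted p under 0.05). At this threshold 0.596% and 0.352% of all shared regions were called. At an unadjusted p under 0.05 the members' counts were 1 and 3, and no share over all shared regions is given for that threshold.

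Rpl35a, a large-subunit gene mutated in some patients with Diamond-Blackfan anaemia, had the largest fall among the main regions. Its main region at chr16:33055245-33057233 had standings of 91.45, 96.3 and 97.5 in f/f and 67.0, 67.8 and 65.0 in KO, so that the groups did not overlap. The means were 95.1 ± 3.20 (SD, n = 3) and 66.6 ± 1.43 (SD, n = 3). The score difference was −1.28 ± 0.138 (SE), with a limma adjusted p of 2.4e-05. Its peaks were 1873, 1847 and 1968 bp wide in f/f and 1193, 1319 and 998 bp in KO. It was the member with the width call, at a limma adjusted p of 0.0167, a call lost when any f/f library or KO replicate 1 was left out. The fold over local background did not fall with it, at 10.9, 9.20 and 10.8 in f/f and 13.4, 14.7 and 7.52 in KO, and the difference in normal scores of the fold was 0.31, with a limma adjusted p of 0.391.

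The other regions around Rpl35a moved in the same direction. Within 1 Mb of its main region there were 55 other shared regions, of which 47 were called lower in KO and 0 higher, and their median difference was −22.8 points. Ranked by fold, 0 of these 55 were called in either direction. From 20 to 40 Mb of chromosome 16, 275 of 343 shared regions were called lower and 5 higher, 80.2% and 1.46%. On the rest of the chromosome the shares were 12.5% and 17.5% of 698 regions. Among the other 77 members the median of the neighbours within 1 Mb lay between −11.0 and 13.8 points. The lowest of these medians was at Rps6, with 8 neighbours, of which 4 were called lower and 0 higher. The part of the surrounding stretch in the fall of Rpl35a was not tested.

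**Figure D5:**
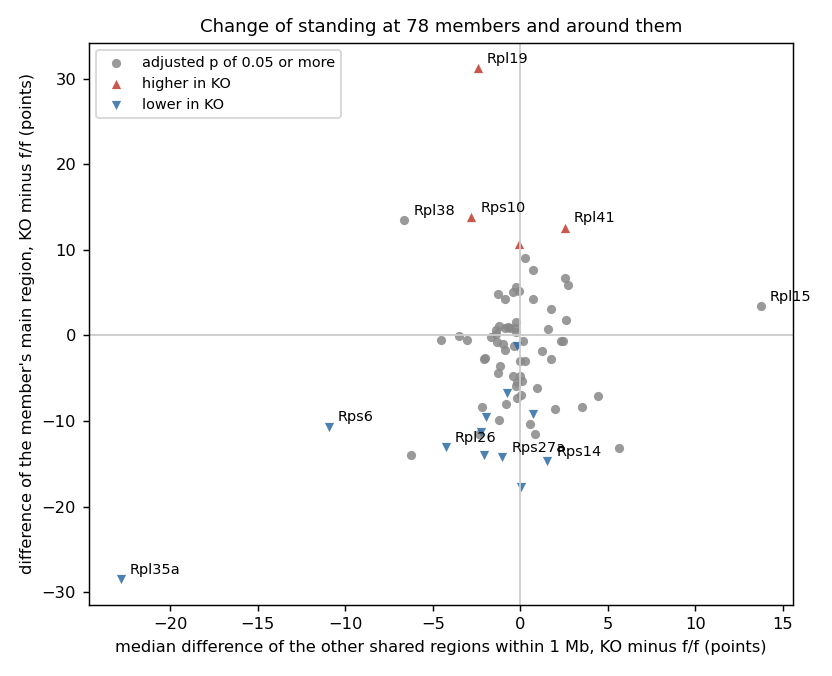
Difference in strength standing, KO minus f/f in percentile points, of the main region of each of 78 members (y axis) against the median difference of the other shared regions within 1 Mb (x axis). Grey circles had an adjusted p of 0.05 or more, red triangles were called higher and blue triangles lower in KO by limma; Rpl35a, at −28.5 against −22.8 points, lies apart from the other members, and Rpl19, at 31.2 against −2.44 points, is shown at its region over Cacnb1.

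Rpl19, a large-subunit gene, had 2 shared regions that moved in opposite directions. Its main region, chr11:98020807-98023323, overlaps Cacnb1, a calcium channel subunit gene, and had standings of 35.6, 37.1 and 41.6 in f/f and 69.8, 73.6 and 64.6 in KO, a rise of 31.2 points. The score difference there was 0.81 ± 0.121 (SE), with a limma adjusted p of 3.3e-04. The region over the listed start site of Rpl19, chr11:98026395-98027541, had standings of 60.3, 77.2 and 74.2 in f/f and 32.9, 36.2 and 44.05 in KO. It fell by 32.9 points, with a score difference of −0.87 ± 0.144 (SE) and a limma adjusted p of 7.1e-04. The groups did not overlap in either region. By the rank of −log10 q the start of Rpl19 was therefore lower in KO, and the higher call belonged to the neighbouring region. The call by fold was also for the region over Cacnb1, and no value by fold is given for the start region. Without any one of the KO libraries the start region became the main region, with a score difference of −0.85 to −0.71. Within 1 Mb, 28 of 112 other shared regions were called lower and 6 higher.

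Rpl41, which encodes the smallest ribosomal protein, was called higher at a main region over Zc3h10, chr10:128547164-128548215, with standings of 77.5, 78.6 and 78.9 in f/f and 89.55, 91.6 and 91.7 in KO (limma adjusted p of 0.00169). At the region over its own start, chr10:128548759-128549497, the standings were 76.7, 63.8 and 66.0 in f/f and 65.75, 63.1 and 77.8 in KO. These overlapped, and the score difference was 0.0043 ± 0.141 (SE), with a limma adjusted p of 0.987. With the region over a listed start as the only one allowed, 57 members could be tested. Of these 1 was higher, Rps10, and 8 were lower, Rpl5, Rpl19, Rpl23, Rpl26, Rpl35a, Rplp2, Rps6 and Rps28. Over all shared regions 13.6% were higher and 12.4% lower, so that 8 of 57 is near the background and 1 of 57 below it.

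Rps10, a small-subunit gene at the mRNA entry side, was the member with a higher call at its own start by both measures. At chr17:27634683-27635816 its standings were 77.8, 70.55 and 73.9 in f/f and 88.1, 88.0 and 87.5 in KO, without overlap, and the score difference was 0.52 ± 0.108 (SE), with a limma adjusted p of 0.0032. Its neighbours within 1 Mb did not move with it, with 9 of 89 called lower, 11 higher and a median of −2.81 points. The fold of its peak was 13.1, 9.42 and 11.4 in f/f and 17.0, 17.7 and 10.7 in KO. The summits were at the same place within 136 bp.

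The lower calls outside the stretch of Rpl35a were smaller. Rps27a, which encodes a fusion of ubiquitin and a small-subunit protein, went from 88.0, 95.4 and 93.7 in f/f to 75.4, 75.6 and 83.5 in KO (limma adjusted p of 0.00288). Rpl26 went from 94.0, 90.4 and 95.3 to 84.1, 79.6 and 76.8 (limma adjusted p of 0.00169), and 22 of its 89 neighbours were lower and 2 higher. In both genes each KO library was below each f/f library. Both lie on chromosome 11, as do Rpl19 and the lower calls Rpl23 and Rpl23a named below. Within 1 Mb of Rps27a, 4 of 18 other shared regions were called lower and 2 higher. These counts were 24 of 109 and 7 at Rpl23, and 11 of 74 and 6 at Rpl23a. Rpl27 and Rpl38 on this chromosome were not called, with 27 of 114 and 10, and 21 of 59 and 2. The part of location in the lower calls was not tested. Rps14, the small-subunit gene of the 5q syndrome, went from 77.6, 86.7 and 82.3 to 64.9, 70.5 and 67.1 (limma adjusted p of 0.00954). Rps28 went from 89.2, 84.2 and 86.9 to 78.3, 76.4 and 71.5 (limma adjusted p of 0.0133). Both also had groups that did not overlap. The call of Rps14 was lost without f/f replicate 2, at a limma adjusted p of 0.0527, and that of Rps28 without f/f replicate 3, at 0.0505.

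Other members were called lower at larger limma adjusted p. Rplp2 of the P stalk went from 86.3, 92.2 and 93.3 in f/f to 78.5, 81.7 and 84.1 in KO (limma adjusted p of 0.0195). Rps6, the substrate of the S6 kinases, went from 81.2, 81.4 and 85.6 to 73.5, 74.0 and 68.8 (limma adjusted p of 0.0276). Rpl5, which with Rpl11 and the 5S rRNA can bind Mdm2, went from 87.6, 93.5 and 95.8 to 85.6, 86.85 and 84.3 (limma adjusted p of 0.0423). All 3 were without overlap between the groups. Rpl11, its partner, had 67.3, 66.3 and 68.0 in f/f and 66.8, 60.5 and 60.1 in KO, with overlap, at a limma adjusted p of 0.433. The other calls were Rpl3, Rpl23 and Rpl23a, all lower, at limma adjusted p of 0.035, 0.0352 and 0.0341. Rpl3 moved by 1.22 points only, from a mean of 99.2 to 98.0, because normal scores spread out the top ranks. Left out in turn, f/f replicates 2 or 3 and KO replicates 1 or 2 each ended the calls of Rplp2, Rps6 and Rpl5, with limma adjusted p of 0.0587 to 0.105, 0.0521 to 0.129 and 0.0809 to 0.214. The call of Rpl23 was lost without any one of the 6 libraries, at 0.0532 to 0.125. That of Rpl23a was lost without any but KO replicate 3, at 0.0515 to 0.121, and that of Rpl3 without any but KO replicate 1, at 0.0564 to 0.125.

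Genes often chosen as expression references were compared by the same measure. Rplp0 stood at 97.0, 95.4 and 97.5 in f/f and at 97.9, 97.3 and 98.0 in KO, with a difference of 1.09 points within overlapping groups (limma adjusted p of 0.333). Rpl13a stood at 85.03, 82.0 and 78.3 in f/f and at 82.9, 87.75 and 90.2 in KO, with overlap (limma adjusted p of 0.189). Rps18 stood at 77.9, 73.7 and 77.2 in f/f and at 57.6, 63.7 and 72.95 in KO. Its groups did not overlap, and the limma adjusted p was 0.0649. Over the 6 libraries the standing of Rpl37 had the smallest SD of the members, at 0.0741 points, followed by Rpl30 at 0.253 points. Both stood close to 100, the top of the scale, where points vary little, so that a small SD does not show a steadier site. In normal scores the SE of the group difference was 0.144 at Rpl37 and 0.117 at Rplp0, whose SD was 0.968 points.

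The members on chromosomes 13 and 15 were 5, of which Rpl3 was called. Rps23, which lies near the decoding site and is on chromosome 13, stood at 70.6, 82.9 and 84.99 in f/f and at 58.5, 59.3 and 78.9 in KO (limma adjusted p of 0.0737). Its groups overlapped. On chromosome 15, Rpl37, Rpl30 and Rpl8 had limma adjusted p of 0.973, 0.543 and 0.546. Rpl8, which lies close to the peptidyl transferase centre, stood at 74.9, 74.9 and 81.3 in f/f and at 73.3, 73.2 and 75.6 in KO, which also overlapped.

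The 8 paralogs were the members without a uniform pattern. Rpl10l and Rpl39l, known from testis, and Rpl32l had no region within 1 kb in any library. Rpl22l1, a paralog of Rpl22, had a mean standing of 92.7, and Rps27l, a p53 target, one of 90.5. Rpl36al stood at 76.7 and Rpl7l1, which acts in large-subunit assembly, at 75.6. Rpl3l, known from muscle, had a main region with a mean of 85.6, but it lay over Msrb1, and no shared region covered the listed start of Rpl3l. Of the 5 with a main region none passed the test, with 0 of 5 at a limma adjusted p under 0.05, or at an unadjusted p under 0.05. Over all shared regions 13.6% were called higher and 12.4% lower at the adjusted threshold, so that 0 of 5 says little.

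Genes of the same process outside the set were counted in the same way. The 4 ribosomal protein genes on the X chromosome, Rpl10, Rpl36a, Rpl39 and Rps4x, all had a main region in all 6 libraries, a median standing of 81.8 and limma adjusted p of 0.0941 to 0.793. Fau and Rack1, whose symbols differ, also had one, and Rack1 was called lower. All 78 mitochondrial ribosomal protein genes had a main region in all 6 libraries, at a median standing of 78.9, with 2 called higher and 26 lower in KO, 33.3%. Translation factors, taken by symbol as Eif or Eef with digits and letters, had one in 64 of 70 genes. Their median standing was 86.4, with 5 higher and 13 lower. This list went by symbol alone and also held genes whose products are not translation factors themselves. Genes of ribosome assembly and rRNA transcription had one in 47 of 47, at 83.8, with 7 higher and 4 lower. Over the main regions of all protein-coding genes 14.7% were higher and 10.6% lower. The mitochondrial genes thus had fewer higher calls than this, 2.56%, and more lower calls, the translation factors had 7.81% and 20.3%, and the assembly genes, with 14.9% and 8.51%, were near it. Part of the lower calls of the mitochondrial genes lay on chromosomes 11 and 13. Part of those of the translation factors lay on chromosome 16 from 20 to 40 Mb, where 80.2% of shared regions were called lower. Some adjacent genes had the same main region and were each counted. The difference between these sets was not tested, and neither was the part of location in it.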

How the data were processed

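ATAC-seq was measured in 6 libraries, 3 per group, grouped by their labels. Per the study's methods, reads were trimmed with Trimmomatic, aligned to mm10 with BWA, and peaks with a q-value under 0.05 were called by MACS2 2.1.2 from the 3 libraries of each group. The deposited data hold 1 peak list per library, and how the libraries were combined, if at all, is not given in the sources used here. The deposited lists give a score, the fold over local background at the summit, and the authors' −log10 p and −log10 q. Treatment of duplicate reads is not given in the sources used here, and read depth was not used here. Peaks sharing at least 1 bp were merged, unplaced contigs left out, and the strongest peak of a library stood for its region. Genes, spans and promoters came from RefSeq GRCm38.p6, which has mm10 coordinates. Ranks were tested with limma 3.58.1 (trend) in R 4.3.3 across all shared regions, with no covariate, and other values were computed with Python 3.11.15, numpy 2.4.6, pandas 2.3.3 and scipy 1.17.1. Merging and test were checked on simulated data.

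Members and lists were chosen with earlier results of these data known. Some genes counted here are not reported by name. Named members were up to 10 calls by size of difference, the 5 strongest, weakest, widest and narrowest, those without a region, those on chromosomes 13, 15, chromosome 4 from 90 to 105 Mb and chromosome 16 from 20 to 40 Mb, those that share a region, 12 well-known genes, paralogs, and those with a group-specific region; the remaining calls were named after their values were seen. The run of C and T, the first base, the neighbours within 1 Mb and the restriction to listed starts were added after seeing the data. Alternatives were ranking by fold or in whole lists, array weights, a replicate block, 50% overlap, −log10 q of at least 5, equal numbers of peaks, windows of 500 bp or 3 kb, the widest region, canonical members, listed starts, and each library left out.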

Additional observations from a re-analysis of the deposited data

How the results depend on the processing

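The 16 members called for strength became 2 when ranked by fold, 4 in whole lists, 32 with array weights (9 higher, 23 lower, beside 20.5% and 20.6% of all shared regions) and 9 at listed starts, and 8 to 17 with a library left out. Without f/f replicate 2, f/f replicate 3 or KO replicate 2 they were 8, 9 and 9, and 17 without KO replicate 3. The shares of all shared regions called higher and lower also changed, from 13.6% and 12.4% in the main test. They were 9.92% and 7.37%, 8.98% and 6.81%, 9.67% and 8.74%, and 12.7% and 12.6% in these 4 settings. With the replicate block 18 members were called, beside 13.4% and 12.5% of all shared regions. The deviations of same-numbered libraries from their group means correlated at 0.049, −0.12 and −0.14, so that the numbers did not pair them. Width calls, 1 in the report, were 0 in whole lists, 0 with the replicate block, 0 at 3 kb, 2 with array weights and 0 to 1 with a library left out, being lost without any f/f library or KO replicate 1. The 1 member with a group-specific region became 0 with equal numbers of peaks, 2 at 3 kb, 0 at listed starts, and 1 to 2 with a library left out. The count of 78 members with a main region in all 6 libraries was 78 under each alternative that keeps all members and regions, 73 of 73 for canonical members and 57 at listed starts. The mean over libraries of the members' median standing, 82.1, was 78.1 by fold, 90.3 in whole lists, 79.6 with −log10 q of at least 5, 77.8 with equal numbers of peaks, and 81.6 to 88.9 with a library left out, the last without KO replicate 3. The score difference of Rpl35a turned to 0.31 by fold. That of Rpl19 turned to −1.07 with equal numbers of peaks, −0.87 at its listed start, and −0.80, −0.85 and −0.71 without KO replicates 1, 2 and 3, where its start region became the main region, and lay between −0.85 and 0.86 over all libraries left out in turn. Rpl26, Rpl35a and Rps27a lost their calls by fold only, and Rps10 in whole lists only, whereas the other calls named were lost under at least 3 alternatives each. The short list of KO replicate 3 limits whole-list ranks. The cause of the other changes was not tested.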

Other observations

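Ribosomal protein genes often carry small nucleolar RNA genes in their introns. Of the 78 members with a main region, 28 held such a gene within their span, 57 genes in all, up to 5 in Rpl4. The members with one had a median standing of 84.6, a median width of 1047 bp and a median difference of −0.96 points between KO and f/f. The 50 members without one had 80.5, 1079 bp and −2.68 points. Of the members with a listed start, the 26 with a run of C and T of at least 8 bases had a median standing of 81.3 and a median difference of 0.13 points, with 1 called higher and 2 lower in KO. The 32 with a shorter run had 84.7 and −3.68 points, with 2 higher and 5 lower. The 23 with CCGGAAG in the promoter had 84.6 and −0.019 points, with 3 higher and 3 lower, and the 35 without it had 81.1 and −2.97 points, with 0 higher and 4 lower. Over the main regions of all protein-coding genes 14.7% were called higher and 10.6% lower, and with so few members in each split the counts of calls say little beside these shares. These splits were chosen after the data were seen and were not tested.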
